A study of Mus musculus with 2 samples.

Results

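The myomiR genes described here are the 8 annotated mouse miRNA genes Mir206, Mir133b, Mir1a-1, Mir133a-2, Mir1a-2, Mir133a-1, Mir1b and Mir133c. They were selected by their GENCODE M21 symbol from 2202 miRNA genes in each count file. The rule uses symbols and no counts. MicroRNA-seq, which sequences short RNAs (here a size range under 30 bases), was run on gastrocnemius, a calf muscle, from female B6CASTF1/J adults, an F1 hybrid strain, at 18 to 20 months of age. The labels list no treatment or engineered allele, and the 2 libraries form 1 group, biological replicates 1 and 2. Both carry the same donor entry but separate tissue sample entries, so the spread between them may be technical.

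MyomiRs are miRNAs enriched in striated muscle. The family is built from bicistronic loci in which a Mir1 or Mir206 hairpin lies near a Mir133 hairpin on the same strand. Mir1a and Mir206 share the seed of their 3p arm, the stretch that pairs with target mRNAs, and both promote myoblast differentiation in cultured mouse cells. Mir133 has an unrelated seed and is known for promoting myoblast proliferation and repressing serum response factor. Mir1 and Mir133a are made in heart and skeletal muscle, whereas Mir206 and Mir133b are made mainly in skeletal muscle.

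The sequences matter first, because reads that fit several places in the genome were tallied as multimapping and entered no gene count. RefSeq (GRCm38.p6) gave sequences for 3 of the 8 genes, Mir206, Mir133b and Mir1a-1. The mature arms are shown 5′ to 3′ with the seed (bases 2 to 8) in capitals, so that the unlike seeds of the Mir206 and Mir133b arms can be seen.
miR-206-3p: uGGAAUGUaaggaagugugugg
miR-206-5p: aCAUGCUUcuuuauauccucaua
miR-1a-1-5p: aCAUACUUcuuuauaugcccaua
miR-133b-3p: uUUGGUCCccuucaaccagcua
miR-133b-5p: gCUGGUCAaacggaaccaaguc

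The 5p arms of Mir206 and Mir1a-1 were identical at 20 of 23 bases. They differed by G5A, C17G and U19C, counted from 1 at the 5′ end with the Mir206 base first. G5A lies inside the seed. Among the 1738 mature arms searched, which did not include the 3p arms of the Mir1 genes or the arms of the Mir133a genes, 2 others carried the seed of miR-206-3p. Both are shown because they match it in the seed, and their genes had 0 counts in each library. The Mir1a genes, whose 3p arm is known to have this seed too, had 22 and 48 counts (Mir1a-1) and 234 and 353 counts (Mir1a-2).
miR-6349: uGGAAUGUgggaggggcaugcg
miR-6382: uGGAAUGUaaagagagcacacaag

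The chromosome 1 hairpins are shown whole, with both mature arms in capitals, because their counts differ most within a locus.
Mir206 hairpin: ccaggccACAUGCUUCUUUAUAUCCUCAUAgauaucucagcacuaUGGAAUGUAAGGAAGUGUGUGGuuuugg
Mir133b hairpin: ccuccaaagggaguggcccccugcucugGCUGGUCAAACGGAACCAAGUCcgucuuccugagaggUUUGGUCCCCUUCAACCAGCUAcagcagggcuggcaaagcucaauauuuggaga

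Shared sequence set Mir206 apart from the other members. The longest stretch that its hairpin shared with any other annotated miRNA hairpin, on either strand, was 13 bases. Mir133b shared 21 bases with Mir133a-1 and Mir133a-2, and all 21 lie in its 22-base 3p arm, seed included. Only the last base of that arm falls outside the shared stretch. Mir1a-1 shared 28 bases with Mir1a-2, Mir133a-1 shared 31 with Mir133a-2, and Mir133c shared 16 with Mir133b. The 5p arm of Mir1a-1 was more distinct, since at most 14 of its 23 bases occurred unbroken in another hairpin. The rest of the genome was not searched, and the counts do not separate the arms.

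Across all 2202 genes, the share of counts held by hairpins with shared sequence depended on the length required. Hairpins that shared at least 16 bases with another (1226 genes) held 58.2% of gene counts in replicate 1 and 48.6% in replicate 2. For at least 20 bases (1087 genes) these shares were 30.2% and 24.0%. For at least 22 bases (1032 genes) they were 2.58% and 2.37%, and for at least 28 bases (886 genes) 0.185% and 0.219%. These lengths were chosen after the data were seen. The median CPM of tested genes did not fall at every length: it was 130 for those sharing at least 20 bases against 72.8 for the rest, 97.2 against 76.5 at 22 bases, and 45.6 against 85.6 at 28 bases. A share of 2.14% of the genes at 28 bases or more had a mean of at least 10 counts, against 21.7% of the remaining genes. Many genes at 28 bases or more have Gm symbols or are Mir466, Mir467 or Mir669 copies, with 0 counts in both libraries. The contrast therefore mixes kinds of gene with shared length. Mir1a-1, Mir1a-2, Mir1b, Mir133a-1 and Mir133a-2 are among those at 28 bases or more. Mir133b, at 21 bases, is among those at 20 bases or more but not among those at 22 or more. How much of the low level of any of these Mir1 and Mir133 genes comes from reads left out as multimapping was not tested.

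**Figure D1:**
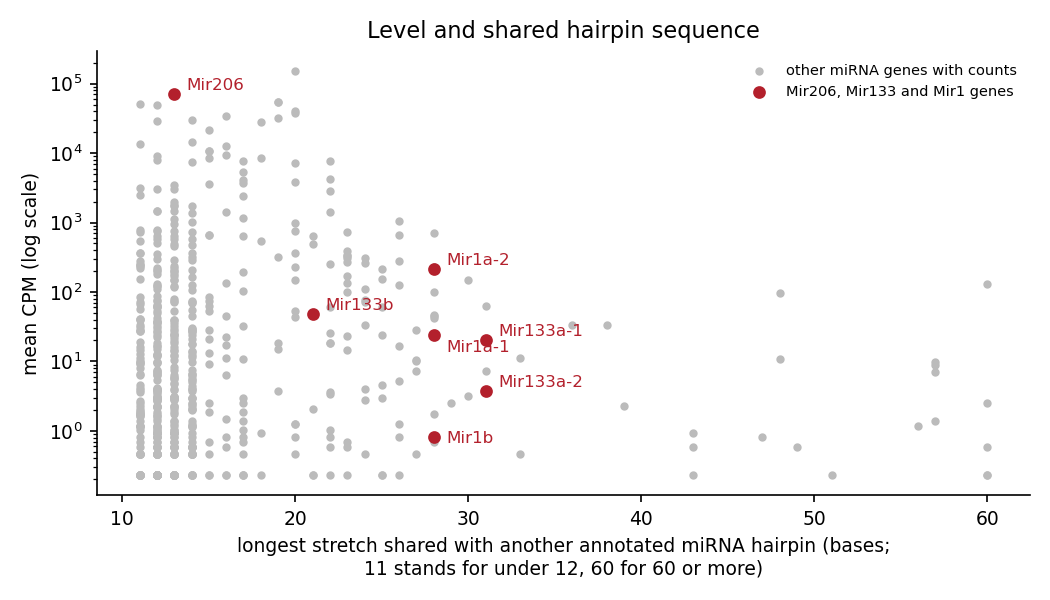
Mean CPM (counts per 1000000 gene counts, log axis) of each miRNA gene with counts against the longest stretch, in bases, that its hairpin shares with another annotated hairpin. Mir206 sits at 13 bases and 71810 CPM, while the Mir133a and Mir1a genes sit at 28 or 31 bases and under 300 CPM.

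The library of replicate 1 comprised 6888732 reads and that of replicate 2 comprised 12001270. Sense counts on miRNA genes came to 865419 and 2177048. Multimapping reads made up 80.7% and 71.0% of all reads. For a gene without counts the floor is 3 counts, which equals 3.47 CPM in replicate 1 and 1.38 in replicate 2. Such floors, and all intervals, reflect counting error alone, as no molecular identifiers mark single molecules. Marker miRNAs were read beside the tissue label, without a threshold or another tissue, so they do not decide it. Smooth muscle genes (Mir143, Mir145a) held 7.54% and 3.80% of counts, endothelial Mir126a 4.73% and 5.30%, and leukocyte genes 0.362% and 0.408%. The striated muscle genes outside the myomiRs (Mir208a, Mir208b, Mir499) made up only 0.0183% and 0.0990%. Fibroblast genes held 0.0633% and 0.138%, erythroid genes 0.0230% and 0.0316%, liver Mir122 9 and 207 counts, and 6 neural genes 1 and 5 counts together, with 5 and 4 of them at 0.

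Among uniquely mapped reads, which leave out those that fit several loci, Mir206 had the most of the 8 genes by a wide margin. It had 34953 counts in replicate 1 and 224741 in replicate 2, which is 40388 and 103232 CPM (71810 ± 44437, SD, n = 2). Replicate 2 was thus the higher library, and Mir206 was the highest of the 8 genes in both libraries. Mir206 (ENSMUSG00000065559.1, mm10 chromosome 1, 20679010 to 20679082, plus strand) lies in an exon of the lincRNA Gm28653. By CPM it ranked 7 in replicate 1 and 3 in replicate 2 among all miRNA genes. By mean CPM it stood between Mir378a (181375 and 123976 CPM) and Mir22 (34676 and 108765 CPM). Its order against Mir22 differed between the libraries, so these neighbours could not be ordered. In bulk tissue, fewer cells of a type and less RNA per cell cannot be told apart.

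Mir133b, its neighbour 3686 bases downstream, had 35 and 121 counts, or 40.4 and 55.6 CPM (48.0 ± 10.7, SD, n = 2). Mir133b (ENSMUSG00000065480.1, chromosome 1, 20682769 to 20682887, plus strand) also lies in an exon of Gm28653. It held the larger CPM in replicate 2, but the counting intervals of the libraries overlapped (28.2 to 56.2 and 46.1 to 66.4 CPM).

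The Mir1a copies were unequal. Mir1a-2 had 234 counts in replicate 1 and 353 in replicate 2, which is 270 and 162 CPM (216 ± 76.5, SD, n = 2), with replicate 1 the higher library. Mir1a-1 had 22 and 48 counts, or 25.4 and 22 CPM (23.7 ± 2.39), nearly level between libraries. Mir1a-2 (ENSMUSG00000106348.1, chromosome 18, 10785481 to 10785552, minus strand) lies in an intron of Mir133a-1hg, its same-strand host, and opposite an intron of the ubiquitin ligase gene Mib1. Mir1a-1 (ENSMUSG00000070144.1, chromosome 2, 180389048 to 180389124, plus strand) overlaps no other annotated gene and lies 3162 bases from the opposite-strand lincRNA B230312C02Rik.

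The Mir133a copies were lower. Mir133a-1 had 14 and 53 counts, or 16.2 and 24.3 CPM (20.3 ± 5.78, SD, n = 2). Mir133a-2 had 2 and 11 counts, or 2.31 and 5.05 CPM (3.68 ± 1.94), and both genes had the larger CPM in replicate 2. Mir133a-1 (ENSMUSG00000065399.2, chromosome 18, 10782909 to 10782976, minus strand) lies 2504 bases from Mir1a-2, in an intron of the same host RNA. Mir133a-2 (ENSMUSG00000065460.1, chromosome 2, 180398379 to 180398482, plus strand) lies 9254 bases from Mir1a-1, outside any other gene.

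Mir1b and Mir133c were at or near the detection limit. Mir1b (ENSMUSG00000080662.1, chromosome 18, 10785446 to 10785567, plus strand), which overlaps Mir1a-2 on the opposite strand, had 1 sense count in each library. Mir133c (ENSMUSG00000098539.1, chromosome 2, 29475215 to 29475294, minus strand), opposite an intron of the Mediator gene Med27, had 0 counts in both. Its 0 allows up to 3.47 and 1.38 CPM of uniquely mapped reads.

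**Figure D2:**
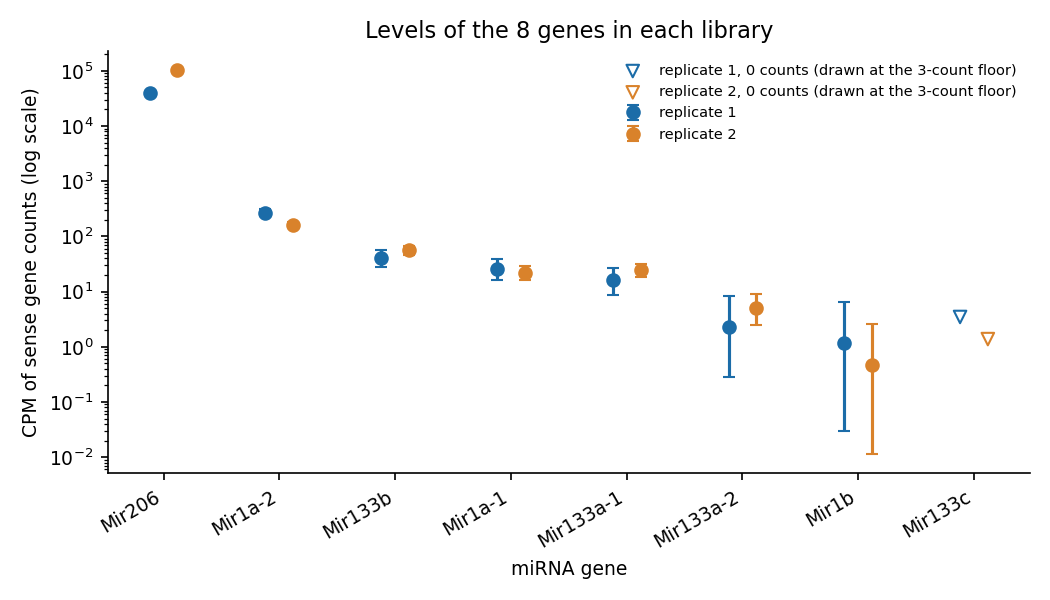
CPM of the 8 genes in each library on a log axis, with exact Poisson 95% intervals as bars; open triangles mark 0 counts, drawn at the 3-count floor. Mir206 at 40388 and 103232 CPM stands far above Mir1a-2 at 270 and 162 CPM and the remaining genes.

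The order of levels was Mir206, Mir1a-2, Mir133b, Mir1a-1, Mir133a-1, Mir133a-2 and Mir1b, with Mir133c at 0. Mir206 exceeded Mir1a-2 by 7.22 on the log2 scale in replicate 1 and 9.31 in replicate 2 (8.27 ± 1.48, SD, n = 2). Mir1a-2 exceeded Mir133b by 2.14 ± 0.85 and Mir133b exceeded Mir1a-1 by 1.00 ± 0.47 on that scale, with the same order in both libraries. Mir1a-1 and Mir133a-1 changed places between the libraries and did not differ beyond their spread (0.25 ± 0.56). Per 100 bases of hairpin the order was the same, but Mir133b and Mir1a-1 no longer differed beyond their spread (0.37 ± 0.47 on the log2 scale). On that per-length scale Mir206 stood at 98370 ± 60873 CPM per 100 bases and Mir1a-2 at 300 ± 106. The RNAs sequenced were under 30 bases, shorter than every hairpin here, so this scale does not measure abundance. The levels of the Mir1 and Mir133 genes can be lower bounds, as the multimapping tally is not divided by locus.

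Together the 8 genes took 4.07% of the gene counts of replicate 1, with an exact Clopper-Pearson interval of 4.03 to 4.12%. In replicate 2 they took 10.4% (10.3 to 10.4). Mir206 alone made up 99.1% and 99.7% of those counts. The other 7 genes held 308 and 587 counts, or 356 and 270 CPM. The multimapping tally was 159 and 37.9 times the Mir206 count. If 0.629% of multimapping reads in replicate 1 and 2.64% in replicate 2 had come from Mir1a or Mir133, those reads would equal Mir206 in number, so the data do not rank Mir206 above mature Mir1 or Mir133.

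The 3 loci differed in the level and balance of their uniquely mapped reads. The Mir206 and Mir133b locus held 40429 and 103288 CPM, the Mir1a-2 and Mir133a-1 locus 287 and 186 CPM, and the Mir1a-1 and Mir133a-2 locus 27.7 and 27.1 CPM. In all 3 the Mir206 or Mir1a hairpin, which comes first in the direction of transcription, had more counts than the Mir133 hairpin in both libraries. Summed over loci, Mir1 genes stood at 297 and 185 CPM and Mir133 genes at 58.9 and 85.0 CPM. Mir1 counts thus outnumbered Mir133 counts 5.04 to 1 in replicate 1 and 2.17 to 1 in replicate 2. Multimapping reads are left out of these counts, so they do not give the balance of mature Mir1 and Mir133. The summed log2 ratio of replicate 2 to replicate 1 was -0.69 for Mir1 and 0.53 for Mir133. Under 5 other scalings these sums stayed between -1.10 and -0.16 and between 0.11 and 1.06.

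**Figure D3:**
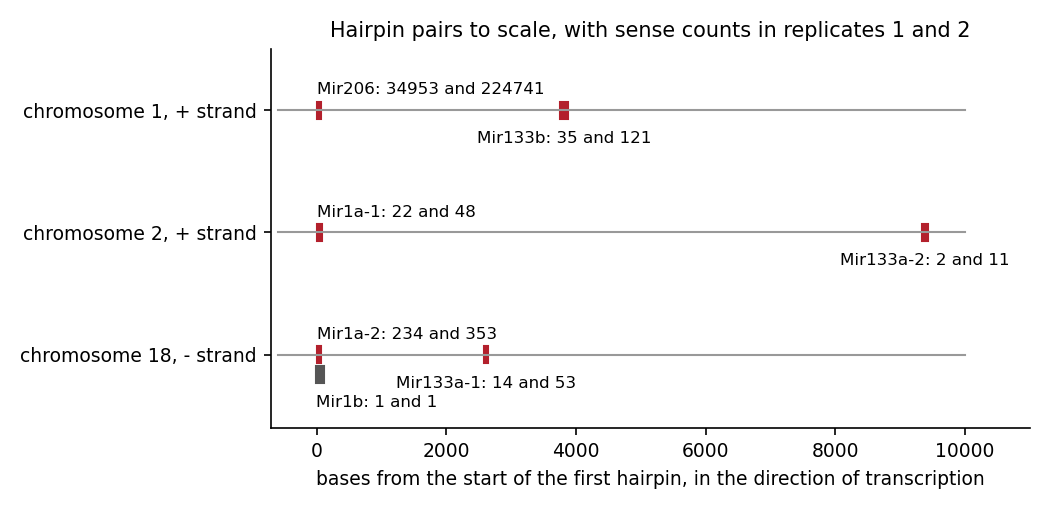
The hairpins of the 3 loci to scale, in bases from the start of the first hairpin, labelled with sense counts in replicates 1 and 2; Mir1b, on the opposite strand, is drawn under Mir1a-2. The first hairpin has more counts than its Mir133 neighbour at each locus, from 34953 against 35 for Mir206 to 22 against 2 for Mir1a-1 in replicate 1.

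Ratios within a library do not depend on its scaling. Mir206 exceeded Mir133b 999-fold in replicate 1 (exact interval 718 to 1434) and 1857-fold in replicate 2 (1554 to 2239). This ratio was 1.86 times as high in replicate 2 (Fisher's exact test, two-sided, adjusted p = 0.00628 over 3 planned pairs). Of the 22 bases of the Mir133b 3p arm, 21 also lie in Mir133a-1 and Mir133a-2, whereas Mir206 shared at most 13 with any hairpin. The Mir206 to Mir133b ratio thus compares uniquely mapped reads and does not give the ratio of their mature RNAs. Whether shared sequence lowered the Mir133b count was not tested. The Mir1a-2 to Mir1a-1 ratio was 10.6 (6.86 to 17.3) and 7.35 (5.43 to 10.2), and the Mir133a-1 to Mir133a-2 ratio was 7.0 (1.61 to 63.5) and 4.82 (2.49 to 10.2). For both copy pairs the intervals of the libraries overlapped (adjusted p = 0.293 and 1.0 by the same exact test). The chromosome 18 copy thus supplied most copy-specific counts, 91.4% and 88.0% for Mir1a and 87.5% and 82.8% for Mir133a. These shares count only reads that mapped to a single copy, so they describe how copies were counted and not how much mature RNA each made.

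The other neighbours were added after their values were seen, and their ratios too hold uniquely mapped reads only. Mir1a-2 exceeded Mir133a-1 by 16.7 to 1 in replicate 1 (9.76 to 31.0) and 6.66 to 1 in replicate 2 (4.98 to 9.07), a ratio 2.51 times as high in replicate 1 (Fisher's exact test, adjusted p = 0.00536 over 5 pairs). Mir1a-1 exceeded Mir133a-2 by 11 (2.70 to 96.5) and 4.36 (2.23 to 9.32), and the difference did not pass (adjusted p = 0.411, same exact test), with 2 and 11 counts of Mir133a-2 behind it.

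**Figure D4:**
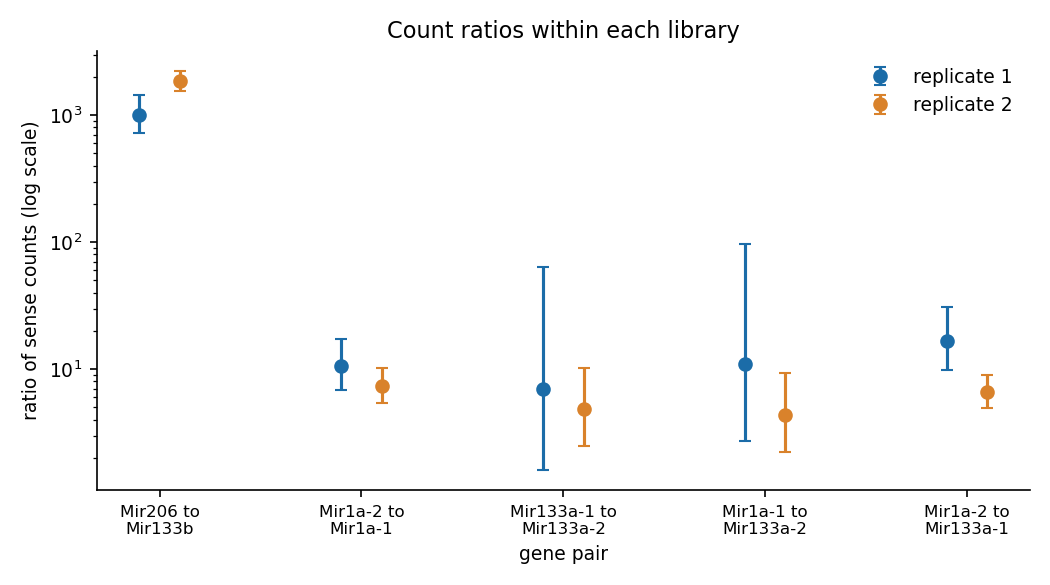
Ratio of sense counts between paired genes within each library on a log axis, with exact 95% intervals from the binomial distribution. Mir206 to Mir133b stands at 999 and 1857, and the 4 other pairs lie between 4.36 and 16.7.

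Between the libraries, Mir206 was the only member called. An exact conditional binomial test, two-sided, was run on the 305 genes whose counts averaged 10 or more, and p-values were adjusted over all of them by Benjamini-Hochberg. A call required an adjusted p below 0.05 together with a 2-fold or larger ratio. This compares the 2 libraries and their counting error, not animals. Of the 8 genes, 5 passed the filter; Mir133a-2, Mir1b and Mir133c did not. In this comparison 33.8% of all tested genes were called, with 26.9% on the side of replicate 2 and 6.89% on that of replicate 1. By adjusted p alone, without the 2-fold limit, 2 of the 5 passed (Mir206 and Mir1a-2), against 67.9% of all tested genes. The 1 call among 5 tested members is below that background share, and nothing particular to them follows from it. Of all called genes 79.6% were higher in replicate 2, against 67.3% with TMM scaling, 59.8% with DESeq2 size factors and 93.9% with all reads as totals.

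The Mir206 level of replicate 2 was 2.56 times that of replicate 1 (exact interval 2.53 to 2.59), a log2 ratio of 1.35, and its adjusted p was too small for double-precision arithmetic to hold. The median tested gene had a log2 ratio of 0.43, so Mir206 stood 0.92 above it. With DESeq2 size factors, which lower each log2 ratio by 0.42, Mir206 was at 0.94 and the call was lost. The ratios of 72 of 305 tested genes were larger, and 5 of the 56 with at least 1000 CPM. The median of those 56 was -0.06.

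Mir1a-2 lay the other way, 1.67-fold higher in replicate 1 (1.41 to 1.97, adjusted p = 8.47e-09 by the exact test), beyond counting error but under the 2-fold limit. With TMM scaling its log2 ratio of -1.02 and with DESeq2 size factors that of -1.16 passed the limit. With all reads as totals, Mir1a-2 was at -0.21 with an adjusted p of 0.112 by the exact test, so the difference was no longer beyond counting error. Mir133b had a ratio of replicate 2 to replicate 1 of 1.37 (0.937 to 2.06, adjusted p = 0.152), Mir133a-1 of 1.5 (0.823 to 2.94, 0.278) and Mir1a-1 of 0.867 (0.514 to 1.51, 0.650), by the same exact test. With all reads as totals Mir133b was at 0.99 on the log2 scale (adjusted p = 0.00036, same exact test), just under the 2-fold limit, and Mir133a-1 was called at 1.12 (adjusted p = 0.0103). With gene-count totals the intervals of these 3 genes include no difference and also differences of 1.5-fold or more. The median log2 ratio of the 5 tested members was 0.46, beside 0.43 for all tested genes.

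**Figure D5:**
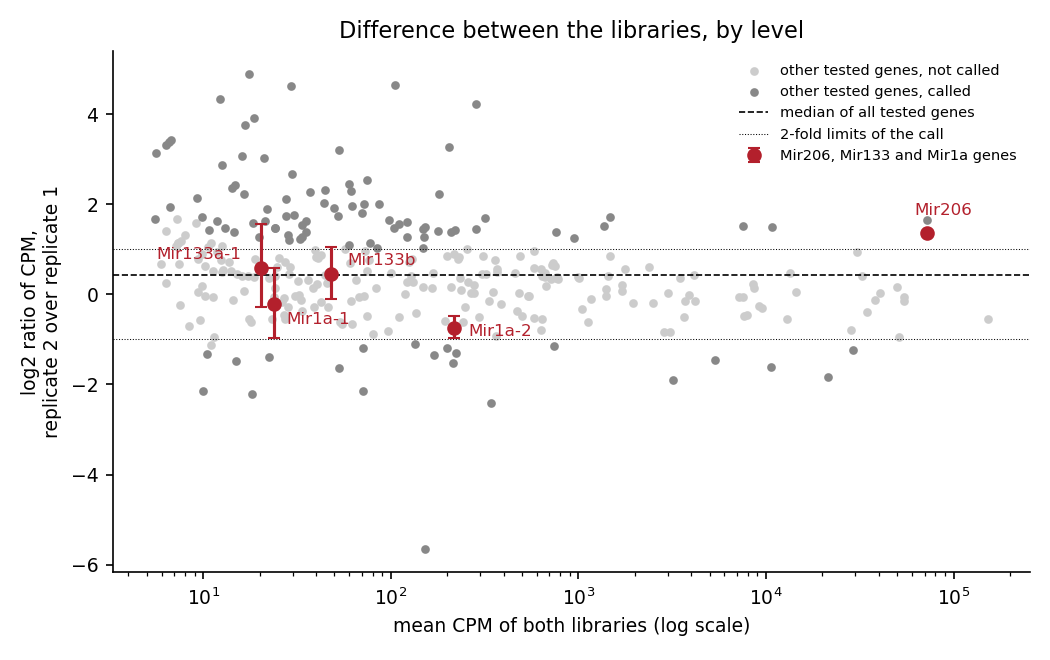
Log2 ratio of CPM, replicate 2 over replicate 1, against mean CPM (log axis) for 305 tested genes, with exact 95% intervals on the 5 tested members; the dashed line is the median of 0.43 and the dotted lines mark 2-fold. Mir206 lies above the upper 2-fold line and Mir1a-2 at -0.74, while Mir133b, Mir133a-1 and Mir1a-1 lie between the lines.

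The genes whose ratio between the 2 libraries was most like that of Mir206, among 55 others with at least 1000 CPM, were Mir149, Mir125a and Mir423. Likeness was the absolute difference in log2 ratio, which was 0.14, 0.16 and 0.16. With 2 libraries this compares a single ratio per gene. The other striated muscle miRNAs, which lie in introns of myosin heavy chain genes, were also higher in replicate 2. Mir208b had 25 and 1177 counts, Mir499 had 132 and 905 and Mir208a had 1 and 74, and all 3 were called. Calls on that side took in 26.9% of all tested genes, liver Mir122 among them (10.4 and 95.1 CPM). They were thus not confined to muscle genes. Smooth muscle markers had the larger share in replicate 1, at 7.54% against 3.80% of counts, as did the leukocyte genes Mir142 (246 and 96.0 CPM) and Mir223 (278 and 123 CPM) and the fibroblast gene Mir199a-2 (15.0 and 5.97 CPM). Within the same lists Mir214 was called higher in replicate 2 (564 and 1335 CPM), while Mir155 (1432 and 2120 CPM) and Mir150 (1663 and 1746 CPM) were not called. The part of these markers in the Mir206 and Mir1a-2 differences was not tested.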

How the data were processed

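The authors deposited raw read counts per miRNA gene, with no normalization, for each library; per the file headers of the README the assembly is mm10 and the annotation GENCODE M21. The aligner, the counter and the trimming of reads were not given in the sources used here. In each file there are 4 tallies and 3 count columns without names, which from their values are unstranded, sense and antisense. The sense column was used, and tallies stayed out of totals and tests. CPM is the count per 1000000 sense gene counts. Symbols, coordinates and shared-stretch lengths came from GENCODE M21, which matched all 2202 identifiers, and shared stretches were searched from 12 bases up among hairpins that do not overlap. Printed sequences came from RefSeq. Tests were run in Python 3.11.15 with SciPy 1.17.1. TMM and size factors came from edgeR 4.0.16 and DESeq2 1.42.0 over tested genes. Members, lists and named genes (the level neighbours of Mir206, genes within 10 kb, Mir208a, Mir208b, Mir499 and the 3 nearest ratios) were chosen with earlier results of these data known. The alternatives were other scalings, the unstranded column, other filters, no ratio limit, per-length levels and each library left out.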

Additional observations from a re-analysis of the deposited data

Results flagged for a closer look

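Counts of 1 member stood in the antisense column, which the comparisons do not use. Mir1b had 234 antisense counts in replicate 1 and 353 in replicate 2, above the limit of 3 counts. They equal the sense counts of Mir1a-2, which lies wholly within the span of Mir1b on the opposite strand. A minus-strand read there enters both counts, so the antisense counts are no separate signal at Mir1b. The 1 sense count of Mir1b likewise equals the 1 antisense count of Mir1a-2 in each library. In the unstranded column both genes are at 0. Mir206 had 0 antisense counts, which allows an antisense level of up to 0.00858% and 0.00133% of its sense counts.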

How the results depend on the processing

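The log2 ratio of Mir206 stayed positive under all 9 alternatives and lost its call with DESeq2 size factors (0.94). Mir133a-1 passed the call rule with all reads as totals (1.12). Mir1a-2 passed it with TMM, with DESeq2 size factors and with no ratio threshold, but was at -0.21 (exact test, adjusted p = 0.112) with all reads as totals, where Mir133b reached 0.99 (0.00036). The number of called genes was 103, against 50 where a mean of 100 or more counts was required and 207 with no ratio threshold, and the fewer genes tested account for part of the former. Over all reads, the Mir206 level was 11900 per 1000000 reads and the members' share 1.19%, because that denominator includes multimapping reads. Leaving out each library gave 40388 to 103232 CPM for Mir206 and a members' share of 4.07 to 10.4%. The log2 ratios within a library then ranged from 9.96 to 10.86 for Mir206 to Mir133b, 2.88 to 3.41 for Mir1a-2 to Mir1a-1, 2.27 to 2.81 for Mir133a-1 to Mir133a-2, 2.13 to 3.46 for Mir1a-1 to Mir133a-2 and 2.74 to 4.06 for Mir1a-2 to Mir133a-1. Ratios between libraries cannot be formed with a library left out. Mir1a-2 has no ratio in the unstranded column, and Mir133b, Mir1a-1 and Mir133a-1 have none with a mean of at least 100 counts. No paired analysis was possible because there is 1 group. Counts under 60 limit Mir1a-1 and the Mir133a copies.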
